A study of Rattus norvegicus with 28 samples.

Results

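The second day of life was compared between rat pups given formula with hypoxia and breast-fed pups. The members were the 3 arrays whose titles carry the formula and hypoxia label of day 2 and the 3 arrays whose titles carry the breast-fed label of day 2, 6 of 28 arrays in all. Each array measured total RNA from the terminal ileum of 1 pup. Formula and hypoxia pups of day 2 were formula-fed newborns that also received hypoxic stress 3 times a day. Breast-fed pups of day 2 were newborns nursed without hypoxia and killed on the same day. The labels give no strain, sex, formula composition or oxygen level. No group received formula without hypoxia or hypoxia without formula, and the effects of the pair cannot be told apart. The other 22 arrays hold the same regimens on days 1, 3 and 4 (3 arrays per group) and 4 unfed newborns.

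The series addresses necrotizing enterocolitis, a disease of newborns in which the bowel wall becomes inflamed and dies. In the rat model, formula in place of milk and repeated hypoxia are given in the first days after birth. At this age the ileal epithelium of the rat takes up milk macromolecules, its secreted mucus layer is still forming, and mucosal mast cells settle in the wall. Mast cells store chymases, which are serine proteases, in their granules. Fibroblasts and smooth muscle of the wall grow quickly, and crypt cells divide.

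All 8740 non-control probe sets of an Affymetrix rat array were considered, and the 5244 with a mean signal above 24.0 were tested. Here a signal is the deposited intensity after quantile normalisation between arrays. A log2 difference is the formula and hypoxia mean minus the breast-fed mean, taken after 8 was added to each signal, which understates the change of dim genes. A probe set was called when its Benjamini-Hochberg adjusted p from limma was under 0.05. That fit took the spread of each probe set from all 9 groups of the 28 arrays, not from day 2 alone. A gene was represented by its brightest probe set, and 3185 genes were tested. The 6 arrays were of like quality. Median signals lay between 40.4 and 43.7 in formula and hypoxia arrays and between 38.3 and 46.2 in breast-fed arrays (exact two-sided permutation p = 0.9). The ratio between the 3′ and 5′ actin control signals, which grows as RNA degrades, was 1.16 to 1.42 in formula and hypoxia arrays and 1.19 to 1.47 in breast-fed arrays (exact permutation p = 0.6). With 3 arrays against 3 the smallest exact p is 0.1, and the number of arrays limits the precision. The label of the tissue was checked on ileal markers. Fabp6, the ileal bile acid binding protein, had signals of 941, 1029 and 1147 in formula and hypoxia pups, against 1346, 889 and 527 in breast-fed pups. Its second probe set was dim in both groups (means 15.3 and 10.9). All 20 ileal epithelium markers on the array passed the filter on dim probe sets, beside 3185 of 4736 genes. Passing the filter could not tell the ileum from other parts of the bowel.

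On day 2 formula and hypoxia pups had far more transcript of the galectin Lgals3 and far less of 3 chymases, the matrix protease Mmp10, the eosinophil chemoattractant Ccl11 and the mucin Muc2 than breast-fed pups. In all 59 probe sets were called, 26 higher and 33 lower, which is 1.13% of those tested (0.496% higher and 0.629% lower). By gene, 16 were called higher and 20 lower, 36 in all (0.502%, 0.628% and 1.13% of 3185). Of the 36, 35 differed more than 2-fold, and folds ran from 1.96 to 8.52. The median standard error of a log2 difference was 0.33, so the test reached mainly the large differences. With the deposited scaling in place of quantile normalisation limma called 22 genes, and with arrays scaled to a common median 20. Under both of these Cpt1a, Cgref1, Hpgd, Aqp8, Fabp5, Srgn, Plk4, Nnt, Ruvbl1, Rfk, Plaur and Tcf4 were not called. Lum, Ptprr and Slc9a3 were not called under the first and Lgals1, Cd24, Mcpt1 and LOC102549726 under the second. From the 6 arrays of day 2 alone limma called 73 genes, 27 of them among the 36. Gmfb, Ptprr, Slc9a3, Hpgd, Srgn, Plk4, Ruvbl1, Plaur and Tcf4 were not called there. The median log2 difference over all genes was 0.01.

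**Figure D1:**
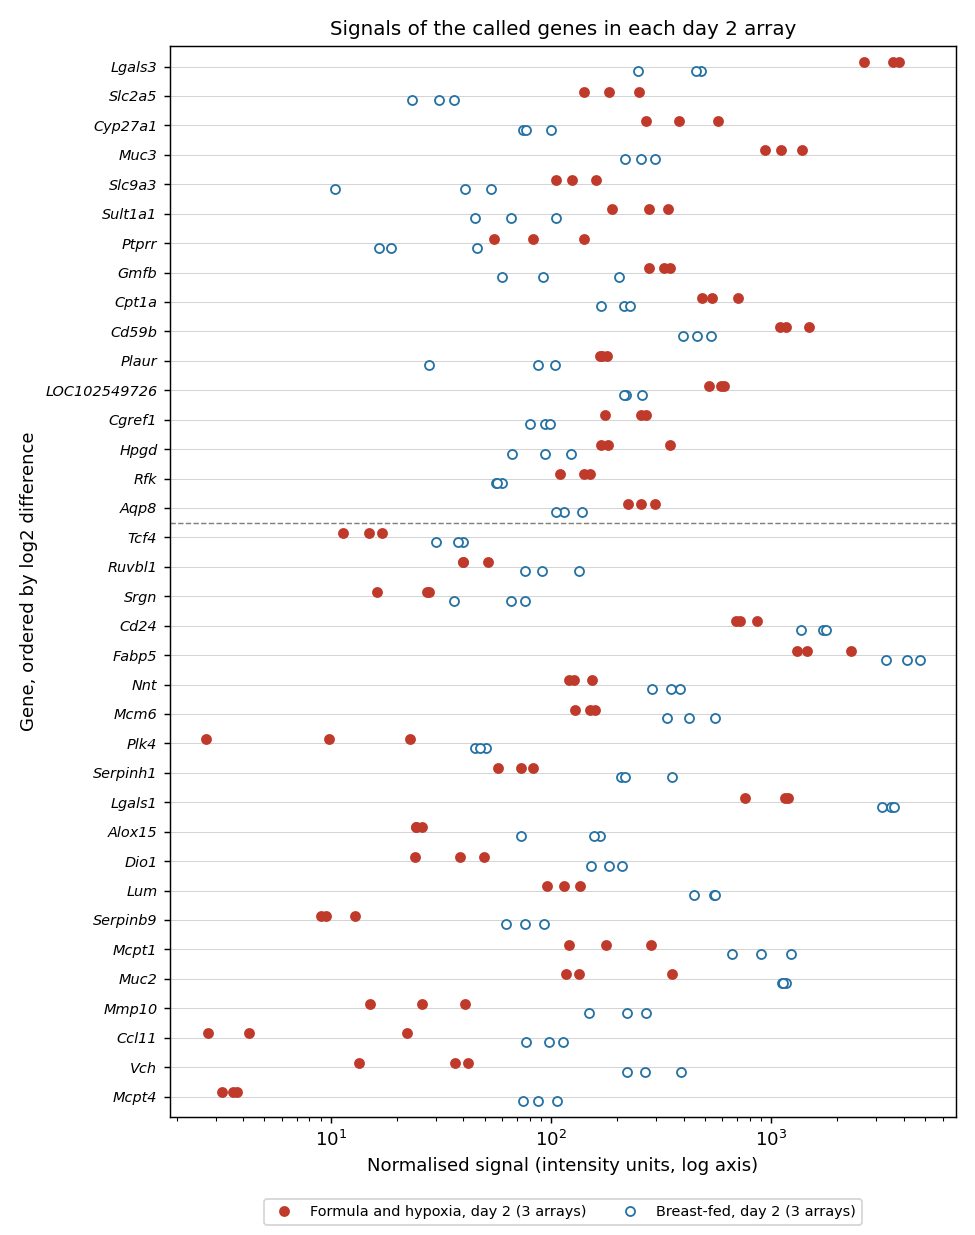
Normalised signal (log axis) of the 36 called genes in each of the 6 day 2 arrays, with formula and hypoxia arrays as filled points above breast-fed arrays as open points. The groups of each gene do not overlap, and the widest separations are those of Lgals3 at the top and Mcpt4 at the bottom.

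**Figure D2:**
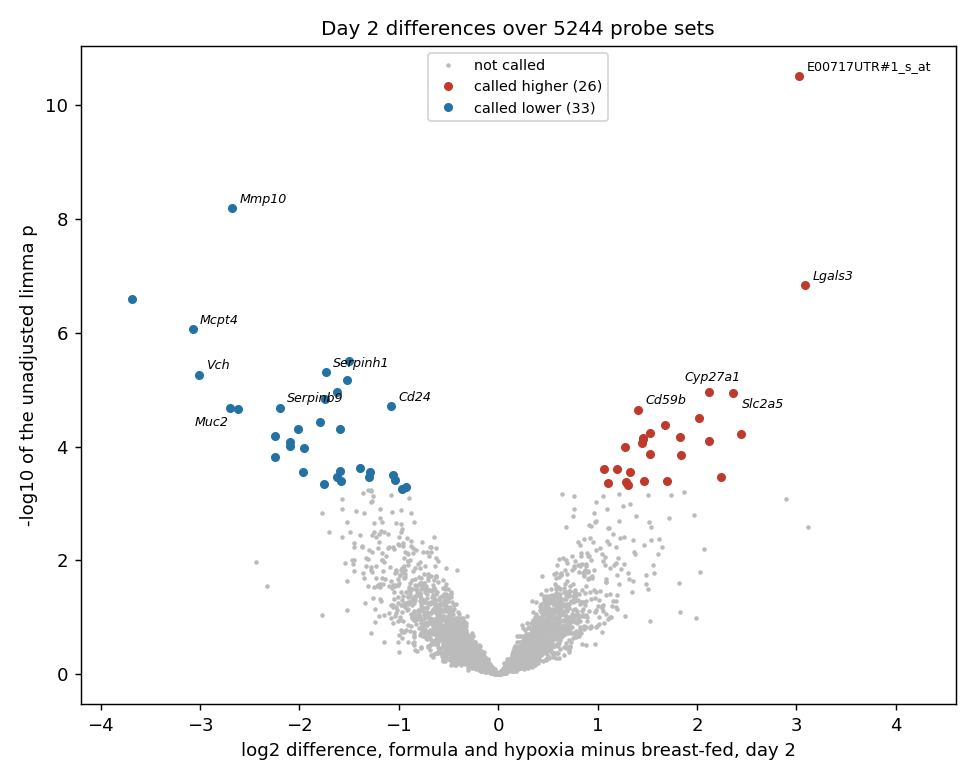
Log2 difference of each of 5244 probe sets on day 2 against the negative log10 of its unadjusted limma p, with the 26 probe sets called higher in red and the 33 called lower in blue. The probe set E00717UTR#1_s_at stands highest, followed by Mmp10 and Lgals3, and dots without a label include called probe sets that have no single gene name.

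The chymases Mcpt4, Vch and Mcpt1 fell. Mcpt4, a chymase of mast cells, had signals of 3.75, 3.59 and 3.21 in formula and hypoxia pups, against 87.6, 106.6 and 74.6 in breast-fed pups. Every formula and hypoxia array lay under the pseudocount of 8, and the groups were far apart. Its log2 difference was -3.07 (SE 0.47, adjusted p = 0.000921), and it was -4.04 with a pseudocount of 2 and -1.77 with 32, so the size is set by the pseudocount while the call held. Vch, vascular chymase, had signals of 13.4, 36.7 and 41.9 in formula and hypoxia pups, against 268, 389 and 222 in breast-fed pups. Its log2 difference was -3.01 (SE 0.52, adjusted p = 0.00361). Mcpt1, another chymase of mast cells, had signals of 121, 178 and 285 in formula and hypoxia pups, against 901, 1225 and 665 in breast-fed pups. The highest formula and hypoxia array was still well under the lowest breast-fed array, and the log2 difference was -2.25 (SE 0.50, adjusted p = 0.0208). The call of Mcpt1 ended without formula and hypoxia replicate 1 or 2 or breast-fed replicate 1 or 2, and with arrays scaled to a common median (adjusted p = 0.0643), while those of Mcpt4 and Vch held whichever array was left out. Of 10 genes tested on the list of mast cell proteases and markers, which includes Vch, these 3 fell and 0 rose. Of all genes, 0.628% were called lower. The proteases Cma1 (log2 difference -0.49, adjusted p = 0.688), Mcpt1l1 (-0.44, adjusted p = 0.915) and Cpa3 (-0.78, adjusted p = 0.640) were not called. Also not called were Mcpt3 (0.05, adjusted p = 0.997), Hpgds (-0.14, adjusted p = 0.978) and the tryptases Tpsb2 (0.03, adjusted p = 0.990) and Tpsab1 (0.08, adjusted p = 0.986). The median log2 difference of the list was -0.47, against 0.01 over all genes. The summed signal of the 10 was 1250 to 1484 in formula and hypoxia pups and 2325 to 3205 in breast-fed pups. This sum includes the 3 called chymases, so it is not separate from their fall, and no sum without them was taken. In whole tissue, fewer cells of a type and less RNA per cell cannot be told apart. Serglycin (Srgn), the proteoglycan that packs proteases in granules of mast cells and other blood cells, was also called lower, with signals of 16.2, 28.1 and 27.2 in formula and hypoxia pups, against 76.3, 66.0 and 36.1 in breast-fed pups (log2 difference -1.05, SE 0.25, adjusted p = 0.0355). Its call ended without any array but breast-fed replicate 3.

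Because the chymases are close relatives, their probe sets could share signal, and the values of each single gene are uncertain to that extent. The probe set U67913_s_at, which the annotation assigns to several genes, fell most of all, with signals of 6.10, 6.59 and 11.4 in formula and hypoxia pups, against 260.2, 161 and 179 in breast-fed pups (log2 difference -3.68, SE 0.52, adjusted p = 0.000339). The 3 genes lie on rat chromosome 15, and their promoters were compared. Transcript and probe sequences were not compared, so the likeness of promoters does not show whether the probe sets share signal. The sequences below are those of RefSeq (build GRCr8), from 250 bases before to 50 after the transcription start, with TATAAA in capitals.
Mcpt4, chr15:33471241-33471540, plus strand: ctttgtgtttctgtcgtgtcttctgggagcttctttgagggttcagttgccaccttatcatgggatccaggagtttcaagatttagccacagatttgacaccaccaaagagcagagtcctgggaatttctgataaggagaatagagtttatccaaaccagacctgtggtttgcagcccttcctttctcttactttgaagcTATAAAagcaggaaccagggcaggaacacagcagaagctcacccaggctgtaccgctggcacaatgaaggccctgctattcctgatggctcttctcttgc
Vch, chr15:33569491-33569790, plus strand: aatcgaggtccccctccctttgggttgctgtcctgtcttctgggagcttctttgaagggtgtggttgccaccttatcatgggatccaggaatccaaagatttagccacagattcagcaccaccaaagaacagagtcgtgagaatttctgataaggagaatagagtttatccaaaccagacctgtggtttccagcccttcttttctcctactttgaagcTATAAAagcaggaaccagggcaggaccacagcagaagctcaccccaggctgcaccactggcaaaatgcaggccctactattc
Mcpt1, chr15:33841356-33841655, plus strand: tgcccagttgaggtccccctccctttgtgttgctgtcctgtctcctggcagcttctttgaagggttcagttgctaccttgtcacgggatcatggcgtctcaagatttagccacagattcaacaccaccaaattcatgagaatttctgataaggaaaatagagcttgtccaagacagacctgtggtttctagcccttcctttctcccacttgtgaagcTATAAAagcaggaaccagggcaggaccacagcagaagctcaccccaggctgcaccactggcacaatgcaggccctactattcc

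In a global alignment of these windows, Vch and Mcpt1 were 86% identical, Mcpt4 and Vch 80.3% and Mcpt4 and Mcpt1 75.4%. TATAAA began at position -50 in Mcpt4, -32 in Vch and -33 in Mcpt1, counted from the transcription start with -1 as the base before it. Of 33469 rat promoters of this length, 14.2% hold TATAAA on either strand. The cAMP response element TGACGTCA, its part TGACG, the AP-1 site TGANTCA, the serum response element, the CArG box, the hypoxia response element core ACGTG and the kappaB site had no match in the 3 windows on either strand. Of all promoters 1.83%, 21.2%, 7.33%, 0.0329%, 1.64%, 19.3% and 0.111% hold them in that order. TGTTCT matched once, on the minus strand of Vch at -125, and 20.7% of all promoters hold it.

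The fall of Mmp10 had the smallest p of any named gene that passed the filter on dim probe sets. Mmp10, stromelysin 2, is a protease that degrades extracellular matrix. Its signals were 15.1, 40.7 and 25.96 in formula and hypoxia pups, against 150, 220 and 270 in breast-fed pups. Even the highest formula and hypoxia array was far below the lowest breast-fed array. The log2 difference was -2.68 (SE 0.31, adjusted p = 1.70e-05), and the call held whichever array was left out. Its promoter is shown because it carries an AP-1 site, TGANTCA, in the form TGAGTCA, which appears in capitals together with TATAAA on either strand.
Mmp10, chr8:12974457-12974756, plus strand: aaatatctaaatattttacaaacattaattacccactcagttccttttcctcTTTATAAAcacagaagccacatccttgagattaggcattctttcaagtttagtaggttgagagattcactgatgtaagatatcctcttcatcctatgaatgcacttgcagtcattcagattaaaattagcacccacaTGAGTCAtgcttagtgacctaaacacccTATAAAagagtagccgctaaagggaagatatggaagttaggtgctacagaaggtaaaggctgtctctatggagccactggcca

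The AP-1 site begins at -61 and the TATAAA nearest the start at -33. A further pair of TATAAA matches, at -198 on the minus strand and -196 on the plus strand, overlap. An AP-1 site is held by 7.33% of all promoters. The match describes the letters alone. Of the AP-1 genes, Fos had signals of 177, 180 and 185 in formula and hypoxia pups, against 213, 171 and 165 in breast-fed pups (log2 difference -0.01, SE 0.42, adjusted p = 0.998). Junb had signals of 72.1, 55.3 and 68.6 in formula and hypoxia pups, against 26.1, 33.7 and 27.4 in breast-fed pups. Its groups did not overlap, but the adjusted p was 0.109. Fosl2 (log2 difference -0.78, adjusted p = 0.566) and Jun (-0.42, adjusted p = 0.939) had lower signals without overlap, and Jund (0.33, adjusted p = 0.941) overlapped. Of 24 immediate early genes tested, 0 were called by limma. In that list 4 of 24 had an unadjusted p under 0.05, all higher, beside 4.49% of all genes higher at that p (9.95% in both directions), and the median log2 difference was 0.33.

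Ccl11, Alox15 and Serpinb9 fell. Ccl11, eotaxin, which attracts eosinophils, had signals of 22.2, 2.78 and 4.27 in formula and hypoxia pups, against 113, 77.0 and 98.3 in breast-fed pups. The groups were widely separated, and formula and hypoxia replicate 1 was the highest of its group. The log2 difference was -2.70 (SE 0.51, adjusted p = 0.00660), it moved between -3.43 and -1.64 with pseudocounts of 2 and 32, and without formula and hypoxia replicate 2 the adjusted p was 0.0510. Alox15, a lipoxygenase that oxidises arachidonic and linoleic acid, had signals of 24.5, 25.9 and 24.4 in formula and hypoxia pups, against 73.0, 167 and 156 in breast-fed pups (log2 difference -2.01, SE 0.41, adjusted p = 0.0114). Its formula and hypoxia arrays were nearly equal, and the call ended without breast-fed replicate 2 or 3. Serpinb9, an inhibitor of granzyme B, had signals of 9.05, 9.55 and 12.8 in formula and hypoxia pups, against 62.8, 76.0 and 92.8 in breast-fed pups. Every breast-fed array was several times brighter, the log2 difference was -2.20 (SE 0.42, adjusted p = 0.00660), between -2.66 and -1.35 with the other pseudocounts, and the call held without any 1 array. Serpinb9 was the only member called of 11 apoptosis genes tested (median log2 difference 0.05).

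Among the classical cytokines of the disease, Il1b and Il18 were tested and not called on day 2. Il1b, interleukin-1 beta, had signals of 29.9, 30.2 and 18.1 in formula and hypoxia pups, against 61.9, 44.0 and 61.4 in breast-fed pups. It was lower without overlap (log2 difference -0.91, SE 0.29, adjusted p = 0.158). The inducible nitric oxide synthase gene Nos2 ranged from 24.6 to 152 in formula and hypoxia pups and from 21.1 to 162 in breast-fed pups, so the groups overlapped almost wholly (adjusted p = 0.995). Il18, interleukin-18, was between 686 and 849 in formula and hypoxia pups and between 512 and 544 in breast-fed pups, without overlap, at an adjusted p of 0.743. Ptafr, the platelet-activating factor receptor, overlapped between the groups (adjusted p = 0.989). Nfkbia, the NF-kB inhibitor that NF-kB itself induces, had signals of 420, 197 and 106 in formula and hypoxia pups, against 99.9, 64.5 and 90.4 in breast-fed pups (adjusted p = 0.301). Tnf, Il6, Ptgs2 and Pla2g2a had probe sets that were too dim to be tested, and Mcpt2 has no probe set under that symbol in the annotation used. Of 23 inflammatory mediators and NF-kB targets tested, 0 rose and 2 fell, which were Mmp10 and Ccl11. Of all genes, 0.502% were called higher and 0.628% lower. At an unadjusted p under 0.05, 1 of the 23 was higher and 5 were lower, beside 4.49% and 5.46% of all genes. The median log2 difference was 0.21.

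Lgals3 rose and Lgals1 fell. Lgals3, galectin-3, a lectin of epithelial cells and macrophages, had the largest rise of the named genes that passed the filter on dim probe sets. Its signals were 3804, 2637 and 3559 in formula and hypoxia pups, against 482, 249 and 453 in breast-fed pups. The lowest formula and hypoxia array was over 5 times as bright as the highest breast-fed array, and the difference was 8.52-fold (95% confidence interval 4.65 to 15.6, adjusted p = 0.000256). The call held without any 1 array. Lgals1, galectin-1, a lectin of mesenchymal cells, had signals of 759, 1187 and 1160 in formula and hypoxia pups, against 3172, 3494 and 3604 in breast-fed pups. Its log2 difference was -1.74 (SE 0.32, adjusted p = 0.00585), and the call ended with arrays scaled to a common median (adjusted p = 0.0986). The galectins Lgals4 (log2 difference 0.44, adjusted p = 0.336) and Lgals9 (-0.04, adjusted p = 0.994) were not called. Lgals3 belonged to the lists of antimicrobial defence (15 tested, median 0.23) and of macrophages and granulocytes (15 tested, median -0.20), and in each it was the only gene called. The summed signal of the macrophage and granulocyte list was 7780 to 9582 in formula and hypoxia pups and 6876 to 8381 in breast-fed pups. Without Lgals3, a sum taken after the values were seen, the other 14 genes gave 5143 to 5778 in formula and hypoxia pups and 6627 to 7928 in breast-fed pups. Among those 14, Coro1a, a regulator of actin in leukocytes (log2 difference -1.52, adjusted p = 0.109), was lower without overlap. So were Aif1, a macrophage protein (-1.14, adjusted p = 0.362), Ctss, a lysosomal protease (-0.66, adjusted p = 0.414), and Cyba (-0.44, adjusted p = 0.940). S100a9 (1.07, adjusted p = 0.278) and S100a8 (0.70, adjusted p = 0.776) were higher without overlap. The rest overlapped, and none of the 14 was called. Of all genes, 10.5% were lower and 10.8% higher without overlap. The part of these cells in the difference of Lgals3 was not tested.

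Of the mucins, Muc3 rose and Muc2 fell. Muc3, a mucin of the brush border membrane, had signals of 1383, 1111 and 934 in formula and hypoxia pups, against 295, 216 and 257 in breast-fed pups. All arrays of the first group lay far above the others, and the log2 difference was 2.12 (SE 0.45, adjusted p = 0.0142). The call ended without formula and hypoxia replicate 1 or 2 or breast-fed replicate 2 or 3, and a pair of other Muc3 probe sets gave 0.88 (adjusted p = 0.647) and 0.72 (adjusted p = 0.729). Muc2, the gel-forming mucin of goblet cells, had signals of 356, 117 and 134 in formula and hypoxia pups, against 1121, 1170 and 1127 in breast-fed pups. Breast-fed arrays were nearly equal, and formula and hypoxia replicate 1 was the highest of its group. The log2 difference was -2.62 (SE 0.50, adjusted p = 0.00660), and without formula and hypoxia replicate 2 the adjusted p was 0.0532. The probe sets of Muc2 disagreed, since a second one that passed the filter gave 0.20 (adjusted p = 0.923) and another, too dim to be tested, gave -0.23. Of 9 mucins and goblet or Paneth cell genes tested, Muc3 rose and Muc2 fell, with a median of -0.09. Of all genes, 0.502% were called higher and 0.628% lower.

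Of the genes for transport of sugar, sodium and water, Slc2a5, Slc9a3 and Aqp8 rose. Slc2a5, the fructose transporter GLUT5, had signals of 141, 250 and 184 in formula and hypoxia pups, against 30.9, 23.5 and 36.2 in breast-fed pups. The groups were clearly apart, the log2 difference was 2.37 (SE 0.43, adjusted p = 0.00509), the call held without any 1 array, and the second Slc2a5 probe set gave 2.25 (adjusted p = 0.0373). Slc9a3, the sodium-proton exchanger NHE3, had signals of 105, 161 and 125 in formula and hypoxia pups, against 40.6, 53.3 and 10.5 in breast-fed pups (log2 difference 1.84, SE 0.41, adjusted p = 0.0201). Breast-fed replicate 3 was the lowest, and the call ended without it and also without formula and hypoxia replicate 2 or 3. Aqp8, a water channel, had signals of 297, 224 and 256 in formula and hypoxia pups, against 115, 106 and 139 in breast-fed pups. Its log2 difference was 1.06 (SE 0.25, adjusted p = 0.0318), and leaving out any 1 array ended the call. Sgk1, a kinase induced by glucocorticoids that activates sodium transport, lay at 844 to 920 in formula and hypoxia pups and at 348 to 391 in breast-fed pups, with an adjusted p of 0.0735. Of 19 genes of sodium and water transport, Slc9a3 and Aqp8 rose and 0 fell (median 0.02), beside 0.502% of all genes called higher and 0.628% lower. Of 18 brush border genes, Slc2a5 alone was called (median -0.12), while lactase (Lct) had signals of 318, 333 and 357 in formula and hypoxia pups, against 424, 599 and 361 in breast-fed pups (adjusted p = 0.759).

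**Figure D3:**
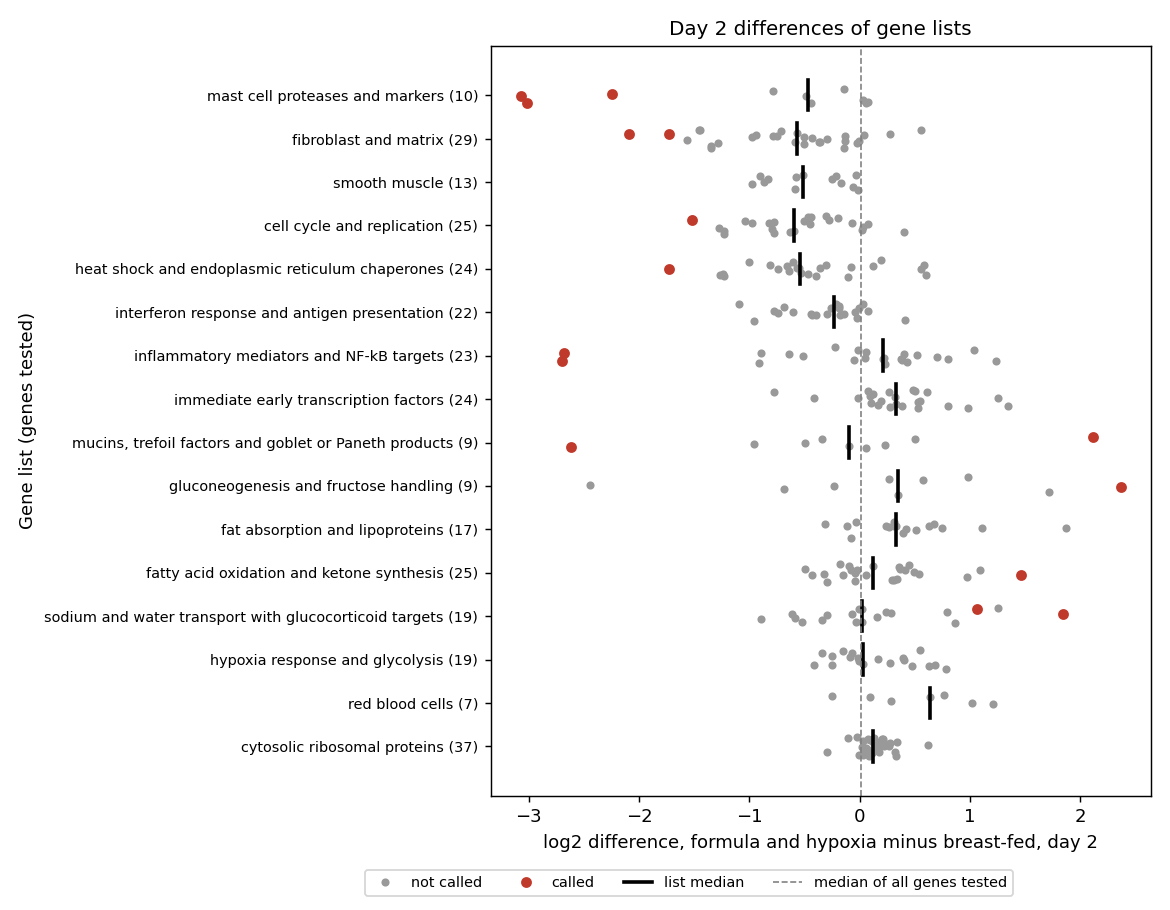
Day 2 log2 difference of every tested gene in 16 of the gene lists, called genes in red, with the list median as a bar and the median of all genes as a dashed line. The medians of the matrix, smooth muscle, cell cycle and chaperone lists lie between -0.51 and -0.60, and the red cell list has the highest median at 0.64.

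Of the enzymes of sterol, fat and drug metabolism, Cyp27a1, Cpt1a and Sult1a1 rose. Cyp27a1, the mitochondrial sterol 27-hydroxylase that makes oxysterols and bile acids, had signals of 575, 382 and 269 in formula and hypoxia pups, against 74.4, 76.8 and 101 in breast-fed pups. The groups were well separated, the log2 difference was 2.13 (SE 0.39, adjusted p = 0.00509), the call held without any 1 array, and its second probe set gave 2.45 (adjusted p = 0.0126). Of 7 bile acid genes it was the only one called (median 0.30), and Slc10a2, the ileal bile acid transporter, overlapped between the groups (adjusted p = 0.995). Cpt1a, the carnitine palmitoyltransferase that admits fatty acids to mitochondria, had signals of 707, 486 and 540 in formula and hypoxia pups, against 169, 215 and 227 in breast-fed pups (log2 difference 1.46, SE 0.31, adjusted p = 0.0131). Its lowest formula and hypoxia array was over 2 times as bright as the highest breast-fed array. The call ended without formula and hypoxia replicate 1 or breast-fed replicate 1 or 2, and under both other scalings (adjusted p = 0.0555 with a common median). Of 25 genes of fatty acid oxidation and ketone synthesis it was the only one called (median 0.12). Fabp5, a fatty acid binding protein, was lower, with signals of 1309, 1459 and 2295 in formula and hypoxia pups, against 4144, 3326 and 4731 in breast-fed pups (log2 difference -1.29, SE 0.30, adjusted p = 0.0329), a call that held only without formula and hypoxia replicate 3 among the 6 omissions.

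Sult1a1, a sulfotransferase of phenols and drugs, had signals of 339, 190 and 280 in formula and hypoxia pups, against 45.2, 65.9 and 106 in breast-fed pups. The groups did not overlap, the log2 difference was 1.82 (SE 0.38, adjusted p = 0.0130), and its second probe set gave 2.02 (adjusted p = 0.00858). The call of the brighter probe set ended without formula and hypoxia replicate 1 or 3 or breast-fed replicate 1 or 2. Sult1a1 was the only gene called of 19 drug-metabolising enzymes tested (median 0.23), and Cyp3a9, a cytochrome P450 of the 3A family, lay at 260 to 392 in formula and hypoxia pups and at 67.1 to 85.7 in breast-fed pups with an adjusted p of 0.0918. The filter on dim probe sets, which uses the mean over all 28 arrays, left out Cyp1a1, a cytochrome P450 induced through the aryl hydrocarbon receptor, which is named here after its values were seen. Its signals were 186, 160 and 119 in formula and hypoxia pups, against 3.10, 10.7 and 8 in breast-fed pups. Without the filter its log2 difference was 3.43 (SE 0.32, adjusted p = 5.87e-07 over 8740 probe sets). In all 5 probe sets below the filter were called in that fit, 4 higher and 1 lower.

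Dio1, the type 1 deiodinase that converts thyroxine to its active form, had signals of 38.4, 49.6 and 24.2 in formula and hypoxia pups, against 211, 183 and 152 in breast-fed pups. Each breast-fed array was over 3 times as bright as any formula and hypoxia array, the log2 difference was -2.09 (SE 0.44, adjusted p = 0.0142), and the second Dio1 probe set gave -1.71 (adjusted p = 0.139). The call ended without formula and hypoxia replicate 3 or breast-fed replicate 1 or 2. Dio1 was the only gene called of 10 of thyroid hormone handling (median -0.10). Pck1, the first committed enzyme of gluconeogenesis, had signals of 15.7, 47.9 and 9.997 in formula and hypoxia pups, against 110, 188 and 157 in breast-fed pups. Its groups did not overlap. The standard error, from the spread over all 28 arrays, was 0.88 beside a log2 difference of -2.44. The limma adjusted p was 0.257, and from the 6 arrays of day 2 alone it was 0.0140. Gpt, alanine aminotransferase, lay at 91.7 to 194 in formula and hypoxia pups and at 30.9 to 33.9 in breast-fed pups (adjusted p = 0.0983). Of 9 genes of gluconeogenesis and fructose handling, Slc2a5 alone was called (median 0.35).

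Of the fibroblast and matrix genes, Serpinh1 and Lum fell. Serpinh1, the collagen chaperone HSP47 of the endoplasmic reticulum, had signals of 57.3, 82.5 and 72.8 in formula and hypoxia pups, against 207, 353 and 217 in breast-fed pups. The groups were clearly apart, the log2 difference was -1.73 (SE 0.30, adjusted p = 0.00361), and the call held without any 1 array. Lum, lumican, a proteoglycan that binds collagen fibrils, had signals of 115, 136 and 96.2 in formula and hypoxia pups, against 449, 550 and 556 in breast-fed pups. Its log2 difference was -2.10 (SE 0.45, adjusted p = 0.0157), and the call ended without formula and hypoxia replicate 1 or 3, without breast-fed replicate 2 or 3, and with the deposited scaling. Thy1, a surface glycoprotein of fibroblasts and neurons, had signals of 45.6, 59.6 and 55.1 in formula and hypoxia pups, against 134, 179 and 116 in breast-fed pups, with an adjusted p of 0.0511. Of 29 fibroblast and matrix genes, 0 rose and 2 fell, beside 0.502% of all genes called higher and 0.628% lower. A negative log2 difference was found for 26 of the 29, with a median of -0.57. Of all 3185 genes, 1552 had a negative log2 difference. In 12 of the 29 every formula and hypoxia array lay below every breast-fed array, against 10.5% of all genes (10.8% had every formula and hypoxia array above). The summed signal of the list was 10080 to 10740 in formula and hypoxia pups and 13600 to 18430 in breast-fed pups. All 13 smooth muscle genes tested had a negative log2 difference (median -0.51) and 0 were called by limma. At an unadjusted p under 0.05, 1 of the 13 was lower, beside 5.46% of all genes. In 6 of the 13 every formula and hypoxia array lay below every breast-fed array, beside 10.5% of all genes. The summed signal of the 13 was 9754 to 10770 in formula and hypoxia pups and 12070 to 15490 in breast-fed pups. Myl9, a myosin light chain of smooth muscle, had the smallest p among them, with signals of 1156, 2109 and 1839 in formula and hypoxia pups, against 2879, 3016 and 3974 in breast-fed pups (adjusted p = 0.139). The part of tissue composition in these results was not tested.

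Of the cell cycle and replication genes, Mcm6 fell. Mcm6, a subunit of the replicative helicase, had signals of 129, 158 and 150 in formula and hypoxia pups, against 338, 553 and 425 in breast-fed pups. Every breast-fed array was over 2 times as bright as any formula and hypoxia array. The log2 difference was -1.52 (SE 0.27, adjusted p = 0.00393), the call held without any 1 array, and its other probe sets gave -1.28 (adjusted p = 0.0507) and -1.02 (adjusted p = 0.111). Plk4, the kinase of centriole duplication, had signals of 22.9, 9.85 and 2.71 in formula and hypoxia pups, against 45.1, 50.7 and 47.5 in breast-fed pups. Its log2 difference was -1.62 (SE 0.39, adjusted p = 0.0373), between -2.16 and -0.89 with the other pseudocounts, and the call held only without formula and hypoxia replicate 1 among the 6 omissions. Ruvbl1, an ATPase of chromatin remodelling complexes, was also lower (log2 difference -1.04, SE 0.25, adjusted p = 0.0405), but its call ended without any 1 array. Of 25 cell cycle genes tested, 0 rose and Mcm6 fell. In that list 21 had a negative log2 difference, beside 1552 of all 3185 genes. An unadjusted p under 0.05 was found for 11, all lower, beside 5.46% of all genes, and the median was -0.60. Ccnd2, cyclin D2, lay at 104 to 146 in formula and hypoxia pups and at 219 to 405 in breast-fed pups, with an adjusted p of 0.157.

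Of 24 chaperone genes tested, Serpinh1 alone was called, 19 had a negative log2 difference (1552 of all 3185 genes), and the median was -0.54. For 3 chaperones of the endoplasmic reticulum, named after their values were seen, a dimmer probe set was called where the brightest was not. Hspa5, the chaperone BiP, had signals of 18.5, 14.7 and 13.3 in formula and hypoxia pups, against 113, 61.0 and 82.2 in breast-fed pups on the dimmer probe set (log2 difference -1.96, adjusted p = 0.0162), and a difference of -1.23 (adjusted p = 0.354) on the brightest. Hsp90b1, the chaperone GRP94, gave -1.60 (adjusted p = 0.0114) and -0.66 (adjusted p = 0.703) in the same order, and Calr, calreticulin, gave -1.39 (adjusted p = 0.0316) and -0.61 (adjusted p = 0.549). In all 12 genes were called through a probe set other than their brightest alone, 4 higher and 8 lower. For Casp1, caspase-1, which processes interleukin-1 beta, the probe sets were close in size, at -1.79 (adjusted p = 0.00974) and -1.77 (adjusted p = 0.0847). For Sparc, a matrix glycoprotein, they disagreed, at -1.96 (adjusted p = 0.0328) and -0.02 (adjusted p = 0.995), as they did for Cyp2e1, an ethanol-inducible cytochrome P450, at -1.50 (adjusted p = 0.00279) and 0.27 (adjusted p = 0.823). The other genes of this kind were Cebpd, Acsl4, Gch1 and Ppm1b, higher on the called probe set, and Ggcx and Cxcl14, lower on it.

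Of the remaining called genes, Cd24 and Cd59b had the smallest p. Cd24, a glycoprotein of immature epithelium and B cells, had signals of 865, 694 and 723 in formula and hypoxia pups, against 1369, 1723 and 1768 in breast-fed pups (log2 difference -1.08, SE 0.20, adjusted p = 0.00660). Its other probe sets gave -1.27 (adjusted p = 0.0624) and -1.20 (adjusted p = 0.175), and the call ended with a common median (adjusted p = 0.102). Cd59b, which blocks the membrane attack complex of complement, had signals of 1480, 1095 and 1172 in formula and hypoxia pups, against 535, 462 and 397 in breast-fed pups (log2 difference 1.41, SE 0.27, adjusted p = 0.00660). Both calls held without any 1 array. Ptprr, a tyrosine phosphatase, had signals of 141, 83.0 and 55.1 in formula and hypoxia pups, against 46.2, 18.9 and 16.5 in breast-fed pups, and the groups came close. Gmfb, glia maturation factor beta, had signals of 349, 325 and 279 in formula and hypoxia pups, against 203, 59.7 and 91.9 in breast-fed pups, where breast-fed replicate 1 was the highest of its group. Both calls (log2 differences 1.53 and 1.53, adjusted p = 0.01998 and 0.0125) ended without formula and hypoxia replicate 1 or 2 or breast-fed replicate 2 or 3. Hpgd, which inactivates prostaglandins, rose by 1.19, Plaur, the urokinase receptor, by 1.31, Cgref1, a cell growth regulator, by 1.28, Rfk, riboflavin kinase, by 1.10 and LOC102549726 by 1.29 on the log2 scale, with adjusted p from 0.0157 for Cgref1 to 0.0434 for Plaur. Nnt, the mitochondrial transhydrogenase, fell by 1.30 (adjusted p = 0.0373) and Tcf4, a transcription factor, fell by 0.97 (adjusted p = 0.0495). The calls of Rfk, LOC102549726, Nnt and Tcf4 ended without any 1 array, that of Plaur without any but breast-fed replicate 1, that of Hpgd without any but formula and hypoxia replicate 3 or breast-fed replicate 3, and that of Cgref1 without any but formula and hypoxia replicate 1 or breast-fed replicate 3.

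Several groups of genes had no gene called by its brightest probe set on day 2. For comparison, 4.49% of all genes were higher and 5.46% lower at an unadjusted p under 0.05. Without overlap between the groups, 10.8% of all genes were higher and 10.5% lower. Of 19 genes of the hypoxia response and glycolysis, limma called 0 and 0 had an unadjusted p under 0.05. Without overlap, 4 of the 19 were higher and 1 lower, and the median log2 difference was 0.03. Egln3, a prolyl hydroxylase induced by hypoxia, had the smallest p, with signals of 248, 315 and 438 in formula and hypoxia pups, against 155, 239 and 215 in breast-fed pups. The groups did not overlap but came close (adjusted p = 0.546). Of 22 interferon and antigen presentation genes, 0 were called, 3 had an unadjusted p under 0.05, all lower, and the median was -0.24. In that list 19 had a negative log2 difference, and 9 were lower and 0 higher without overlap. Cd74, the class II invariant chain, lay at 122 to 142 in formula and hypoxia pups and at 209 to 383 in breast-fed pups (adjusted p = 0.191). Of 17 fat absorption genes, 0 were called, 5 had an unadjusted p under 0.05, all higher, and the median was 0.33. Without overlap, 6 of the 17 were higher and 0 lower. Acsl4 of this list was called by limma on a dimmer probe set (log2 difference 1.46, adjusted p = 0.0133). Its brightest gave 1.87 (adjusted p = 0.0517). Fabp2, the intestinal fatty acid binding protein, had signals of 4814, 5768 and 5140 in formula and hypoxia pups, against 4278, 2674 and 2610 in breast-fed pups (adjusted p = 0.0929). Of 37 ribosomal protein genes, 33 had a positive log2 difference (1633 of all 3185 genes) with a median of 0.12. Limma called 0 of the 37, also 0 at an unadjusted p under 0.05, and 7 were higher and 0 lower without overlap. Areg, amphiregulin, a growth factor of epithelia, had signals of 103, 86.6 and 83.0 in formula and hypoxia pups, against 28.2, 21.4 and 28.6 in breast-fed pups, without overlap, at an adjusted p of 0.124.

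Of 7 red cell genes tested, limma called 0, and the median log2 difference was 0.64. An unadjusted p under 0.05 was found for 3, all higher, beside 4.49% of all genes. Alas2, which starts heme synthesis in erythroid cells, had signals of 550, 339 and 584 in formula and hypoxia pups, against 211, 206 and 188 in breast-fed pups (adjusted p = 0.0540). Hbb, a beta globin gene, had signals of 10393, 8455 and 8903 in formula and hypoxia pups, against 6984, 5117 and 5768 in breast-fed pups (adjusted p = 0.0540). Their summed signal was 14650 to 20090 in formula and hypoxia pups and 9244 to 12100 in breast-fed pups, and the part of blood in the other results was not tested.

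**Figure D4:**
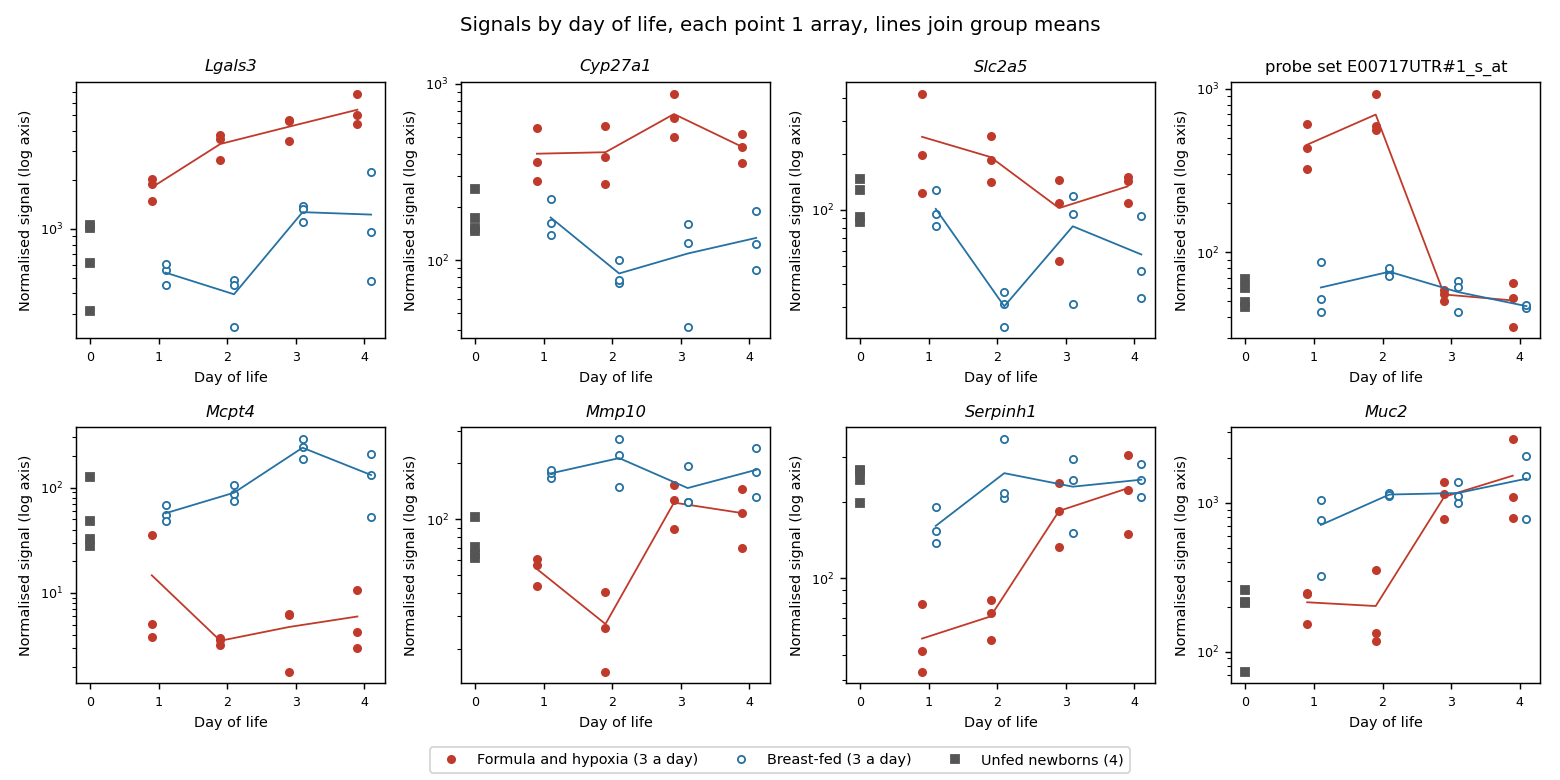
Normalised signal (log axis) of 8 probe sets in all 28 arrays by day of life, with lines joining group means. Lgals3, Cyp27a1 and Mcpt4 keep the regimens apart from day 1 or 2 to day 4, while Mmp10, Serpinh1, Muc2 and E00717UTR#1_s_at are apart on days 1 and 2 and nearer to each other on days 3 and 4.

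The same contrast on the other days uses other arrays and was set beside day 2. On day 1 limma called 1 probe set higher and 0 lower (0.0191% and 0%). It called 46 and 51 on day 3 (0.877% and 0.973%) and 32 and 54 on day 4 (0.61% and 1.03%). Of the 36 genes called on day 2, 33 had the same sign on day 1, 34 on day 3, 36 on day 4 and 31 on all 4 days, and 25 had a larger difference on day 2 than on each other day, which choosing genes by their day 2 difference favours. Mcpt4 gave log2 differences of -1.78, -3.07, -4.28 and -3.18 on days 1 to 4. Lgals3 gave 1.73, 3.09, 1.74 and 2.40, and Dio1 gave -0.57, -2.09, -2.86 and -3.23. Other genes had smaller differences on days 3 and 4 than on days 1 and 2. Mmp10 gave -1.58, -2.68, -0.25 and -0.75 on days 1 to 4, Serpinh1 gave -1.38, -1.73, -0.29 and -0.16, and Muc2 gave -1.57, -2.62, -0.11 and -0.02.

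**Figure D5:**
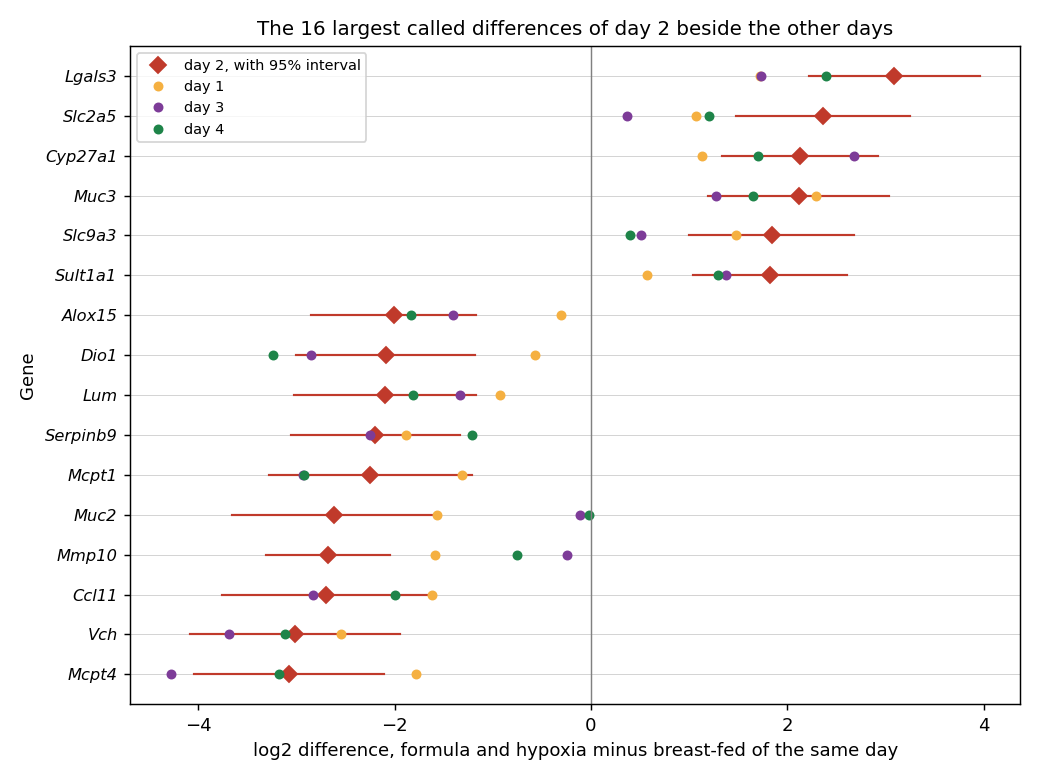
Log2 differences of the 16 genes with the largest called differences of day 2, with the day 2 value as a diamond with its 95% interval and the values of days 1, 3 and 4 as circles. The day 3 and day 4 values of Muc2 (-0.11 and -0.02) and Mmp10 (-0.25 and -0.75) lie outside the day 2 interval, while the chymases and Cyp27a1 have large differences on later days too.

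Whether day 2 differed from the other days was tested in the same model, as the day 2 difference minus the mean of the differences on days 1, 3 and 4. Of 3185 genes limma called 0 (0%), 181 had an unadjusted p under 0.05, and Mmp10 came nearest, at -1.82 (SE 0.35, adjusted p = 0.0785). Muc2 gave -2.05 (SE 0.58, adjusted p = 0.796). Over all probe sets 1 of 5244 was called (0.0191%), E00717UTR#1_s_at, for which the platform annotation gives no gene. Its signals on day 2 were 928, 595 and 560 in formula and hypoxia pups, against 75.7, 71.8 and 80.4 in breast-fed pups. The log2 difference was 3.03 (SE 0.26, adjusted p = 1.62e-07), which was the smallest p of all probe sets on that day, and the call held without any 1 array.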

How the data were processed

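Total RNA from the terminal ileum of single pups was hybridised to Affymetrix rat arrays, 1 pup per array. The authors deposited 1 linear intensity per probe set and array. Neither labels nor headers name the software or the summary method. From the values, 26 of 28 arrays had nearly the same trimmed mean, so arrays had been scaled before deposit. Intensities were quantile-normalised between arrays, 8 was added, and log2 was taken. Probe sets with a mean above the 40th percentile (5244 of 8740 after 59 controls were left out) entered 1 limma fit of 9 group means over 28 arrays, with variances moderated along an intensity trend and p-values adjusted by Benjamini-Hochberg (R 4.3.3, limma 3.58.1). The fit shares the spread of all groups. GEO's platform annotation gave 7006 probe sets 1 gene symbol, 308 several and 1426 none, and 6985 matched RefSeq. Promoters came from RefSeq GRCr8 (Python 3.11.15, Biopython 1.88). The test was checked on simulated data. Groups were taken from array titles.

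Genes were named by a rule: the 15 largest called rises and 15 largest called falls, up to 6 called members of each of 40 lists or the 2 with the smallest p where none was called, 25 further genes, and the 10 with the smallest p for day 2 against the other days. Srgn, Fabp5, Cd24, Ruvbl1 and Tcf4 lie outside it and were added, after their values were seen, to complete the called genes. The uncalled members named beside the chymases, the galectins and the macrophage list also lie outside it, as do Fosl2, Jun and Jund. So do the genes called only on a dimmer probe set, apart from Acsl4. All of these were likewise named after their values were seen. The members and lists were chosen with earlier results of these data known. No 2 arrays held identical values. The alternatives tried were other scalings, pseudocounts, filters, sets of arrays, array weights, moderation settings, a term for accession run, a replicate block and leaving out each array. All 6 arrays of day 2 belong to 1 run of accessions.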

Additional observations from a re-analysis of the deposited data

Results flagged for a closer look

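The probe set E00717UTR#1_s_at differed between days, by a test of the difference itself. Its day 2 log2 difference exceeded the mean of days 1, 3 and 4 by 2.10 (SE 0.31, limma adjusted p = 0.00216). The differences were 2.75, 3.03, -0.03 and 0.07 on days 1 to 4, so days 1 and 2 stood together above days 3 and 4. With the deposited scaling it was not called in this test.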

How the results depend on the processing

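The 59 called probe sets (36 genes) became 33 (22) with the deposited scaling, 30 (20) with a common median, 115 (73) from the 6 arrays of day 2 alone, 220 (140) with array weights, and 24 to 36 (17 to 23) with 1 array left out. The probe sets called for day 2 against the other days numbered 1, and 0 with the deposited scaling or 1 probe set per gene, 2 without the filter or without the 2 breast-fed arrays of days 3 and 4 that had lost abundant probe sets, and 1 to 2 with 1 array left out. That test was not run for the 6 arrays alone or 1 accession run. From the 6 arrays alone, 27 of the 36 genes stayed called for the day 2 difference. Some genes that the main fit did not call passed there. Their limma adjusted p was 0.00288 for Cyp3a9, 0.00811 for Sgk1, 0.00942 for Areg, 0.0118 for Xdh, 0.0140 for Glud1 and Pck1 and 0.0402 for Insig1. Of the 36 genes, 12 stayed called whichever array was left out, 10 under every alternative that tested them (22, or 21 for Mcpt4 and Serpinb9, which the 60th percentile filter left out), and 0 reversed. Among genes not called, Slc10a2 reversed with a pseudocount of 32 (0.010) and with array weights (0.016), and Nos2 with array weights (-0.095). With 1 array left out, the log2 difference of Nos2 ran from -0.67 to 0.74, Slc10a2 from -0.39 to 0.34, Fos from -0.077 to 0.098, Ptafr from -0.098 to 0.21 and Fabp6 from -0.079 to 0.59. The cause was not tested. Replicate numbers did not pair the samples (correlations of deviations -0.126, 0.0553 and -0.112), and with the replicate block 42 probe sets and 27 genes were called. Signal over background limits dim genes, whose size follows the pseudocount.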

Other observations

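Some metabolic genes were separated between the groups on day 2 without passing the limma test. Xdh, xanthine dehydrogenase, which makes uric acid, had signals of 214, 219 and 178 in formula and hypoxia pups, against 448, 642 and 535 in breast-fed pups (adjusted p = 0.191). Glud1, glutamate dehydrogenase, had signals of 1240, 1008 and 1318 in formula and hypoxia pups, against 505, 568 and 403 in breast-fed pups (adjusted p = 0.157), while its other probe sets gave 0.91 (adjusted p = 0.119) and -0.23 (adjusted p = 0.950). Insig1, a sterol sensor, lay at 332 to 367 in formula and hypoxia pups and at 159 to 192 in breast-fed pups (adjusted p = 0.605). Elovl5, a fatty acid elongase, had a log2 difference of -0.70 (adjusted p = 0.229), Dgat1, which makes triglycerides, one of 0.67 (adjusted p = 0.307) and Gpx2, an intestinal glutathione peroxidase, one of 0.76 (adjusted p = 0.289). Afp, alpha-fetoprotein, had signals of 703, 373 and 475 in formula and hypoxia pups, against 1296, 1429 and 911 in breast-fed pups (adjusted p = 0.589).

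In the 16 lists of the next sentences limma called 0 genes. The median log2 differences were 0.04 for cholesterol synthesis (17 tested), -0.18 for fatty acid synthesis (7), 0.15 for arginine and amino acid nitrogen (21), 0.12 for oxidative stress defence (22), 0.22 for glutathione transferases (15), 0.25 for epidermal growth factor ligands and receptors (6), 0.02 for the insulin-like growth factor system (11), 0.28 for epithelial junctions (11) and 0.01 for oxidative phosphorylation (28). Among markers of other cell types they were -0.26 for neurons and glia (19), -0.13 for enteroendocrine cells (10), -0.10 for lymphocytes (11), 0.27 for exocrine pancreas (7), 0.29 for serum proteins (15), 0.15 for fat tissue (6) and -0.23 for endothelium (5). At an unadjusted p under 0.05, 4.49% of all genes were higher and 5.46% lower. At that p oxidative stress defence had 5 genes higher and 1 lower, arginine and amino acid nitrogen 4 and 2, and fatty acid synthesis 1 and 2. Neurons and glia had 3 and lymphocytes 2, all lower, and glutathione transferases had 2, all higher. Cholesterol synthesis, epidermal growth factor, junctions and pancreas had 1 each, higher. Oxidative phosphorylation and endothelium had 1 each, lower. The insulin-like growth factor system, enteroendocrine cells, serum proteins and fat tissue had 0. Of 20 ileal epithelium genes, Muc2 alone was called, 4 had an unadjusted p under 0.05 (2 higher and 2 lower), and the median was 0.15. Cd79b, a B cell receptor subunit, had signals of 9.24, 11.6 and 8.39 in formula and hypoxia pups, against 44.5, 23.7 and 29.4 in breast-fed pups (adjusted p = 0.354).

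In the test of day 2 against the mean of the other days, the other genes with the smallest p were Ccnd2 (-1.59, adjusted p = 0.796), Nfe2l2, the oxidative stress factor NRF2 (1.80, adjusted p = 0.796), Rgn, regucalcin (1.31, adjusted p = 0.796), Pdhx, Eif2b5, Spp2, Aagab and Fah, none of them called.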
